A study of Homo sapiens with 9 samples.

Results

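HUWE1-CS cells were compared with HUWE1-WT cells, 2 lines edited in the same way from HCT116, a human colon carcinoma cell line. In both lines a repair template was inserted at the end of the endogenous HUWE1 gene, with the end of its open reading frame, a P2A peptide and a blasticidin resistance gene, and cells were selected with puromycin and blasticidin. The template carried serine in place of the catalytic cysteine in HUWE1-CS cells and kept the cysteine in HUWE1-WT cells. The comparison was made on 6 of the 9 libraries of the series, 3 biological replicates of each edited line, chosen by the genotype in the labels. The other 3 libraries are of unedited parental cells, HUWE1-P, whose values are given for reference. No drug treatment was applied to the cells used for RNA-seq. Each edited line was grown from single cells, and the sources used here do not state whether its 3 replicates are 1 clone or several. The mutation and the history of a clone cannot be told apart, and p-values measure the spread between these libraries.

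HUWE1 is a very large ubiquitin ligase of the HECT family. HECT ligases take ubiquitin from an E2 enzyme onto a cysteine in the HECT domain and then pass it to the substrate, so that a ligase whose cysteine is exchanged for serine can still bind its partners but cannot pass ubiquitin on. HUWE1 is known for substrates such as MYC and MCL1 and for roles in DNA repair and replication. The comparison asks which transcripts differ when the catalytic residue is the only designed difference.

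The codon of the catalytic residue is shown because it is the designed difference between the lines. In the GENCODE annotation of GRCh37 it is codon 4341 of 4374, split between exons 84 and 85 of 85, within chrX:53560372-53560969 on the minus strand. The spliced reference coding sequence around it is given below with the cysteine codon in capitals. Counts per gene carry no information on which base was present.
HUWE1 codon 4341: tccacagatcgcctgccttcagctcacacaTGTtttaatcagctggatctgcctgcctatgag

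The 6 libraries held between 1691136 and 1828538 counts, so that 3 counts, taken as the floor, are worth 1.64 to 1.78 CPM (counts scaled to the normalized library size). Such floors and counting intervals cover counting error alone, since reads are not independent molecules. HCT116 identity was looked up in marker lists. Of 17 colon epithelial markers 10 were among the genes tested, with a summed level of 4456 to 4868 CPM in HUWE1-WT libraries and 4103 to 4485 CPM in HUWE1-CS libraries. Of 11 fibroblast markers 2 were tested (COL1A1 and ACTA2), with a summed level of 23.4 to 29.7 CPM in HUWE1-WT and 16.3 to 23.7 CPM in HUWE1-CS libraries, and of 11 leukocyte and endothelial markers only CD68, at 6.39 to 14.5 CPM. COL1A1 was called lower in HUWE1-CS cells (log2 fold change -0.88), a call lost by edgeR without HUWE1-WT replicate 3 (adjusted p = 0.0487), HUWE1-CS replicate 2 (0.019) or HUWE1-CS replicate 3 (0.0407), and ACTA2 (0.80) and CD68 (-0.57) were not called. In bulk RNA, fewer cells of a type and less RNA per cell cannot be told apart. Counts on mitochondrially encoded genes made up 1.05%, 0.691% and 1.17% of the HUWE1-WT libraries and 1.08%, 1.05% and 0.831% of the HUWE1-CS libraries, a difference of means of 0.0159 percentage points (exact permutation test, two-sided, p = 0.8; 3 against 3 libraries cannot give less than 0.10).

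Of 11350 genes tested, 1759 differed between HUWE1-CS and HUWE1-WT cells at a false discovery rate (FDR) of at most 0.01 in edgeR's quasi-likelihood test (15.5%), 842 higher (7.42%) and 917 lower (8.08%) in HUWE1-CS cells. Most differences were small. Among called genes the absolute log2 fold change had a median of 0.57, 695 of them were below 0.5, and only 71 rose and 202 fell by at least 1 on the log2 scale, so that lower genes made up most of the large changes. The 3 HUWE1-CS libraries lay beyond all 3 HUWE1-WT libraries for 36.1% of all genes and for 1733 of the called genes. The share of genes called rose with their level. Of genes with a mean level under 10 CPM 6.66% were called, of genes between 10 and 100 CPM 12.7%, and of genes above 100 CPM 29.5%, and the median standard error of the log2 fold change was 0.368 in the first of these classes and 0.0827 in the last. A gene of low level that was not called may therefore differ by more than a called gene of high level. Counts over 11350 genes were also simulated in 3 data sets, with 200 changed genes in each. There a true log2 change of 1 was called in 81.3% of cases and a true change of 0.5 in 41.0%. In the data 1759 genes were called, and the p-value needed for a given FDR depends on how many genes differ. These rates therefore hold for the simulated setting and not for the data.

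**Figure D1:**
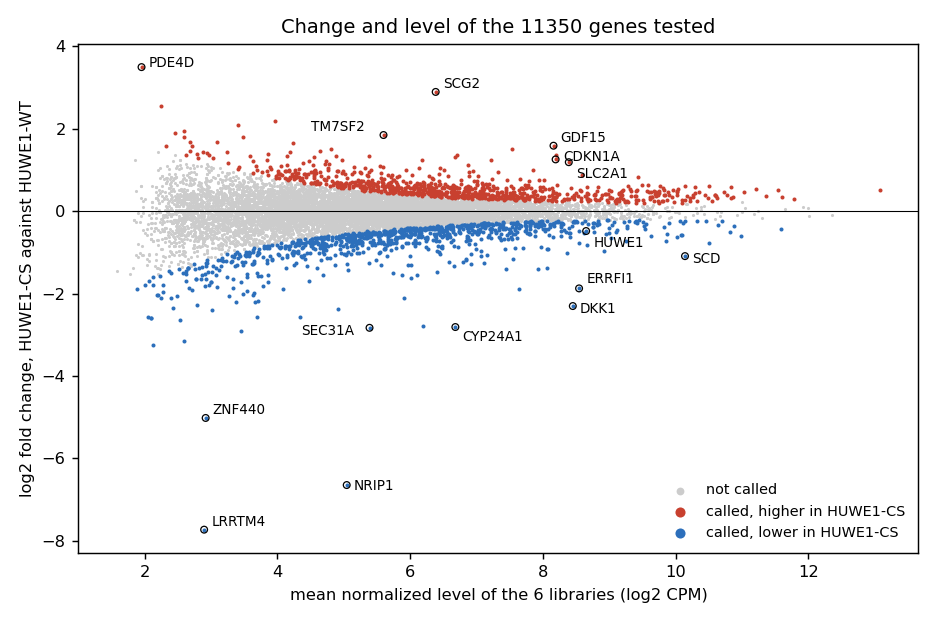
Each point is 1 of the 11350 genes, with the mean normalized level of the 6 libraries (log2 CPM) on the x axis and the log2 fold change of HUWE1-CS against HUWE1-WT on the y axis; red and blue points passed an FDR of 0.01 in edgeR's test. The 15 circled genes are named in the text, and LRRTM4, NRIP1 and ZNF440, at 0 to 3 counts over the HUWE1-CS libraries, lie far below all others at a position that depends on the prior count of the fit.

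HUWE1 itself, expressed from the edited locus (Entrez identifier 10075; chrX:53559057-53713697, minus strand, GRCh37), was lower in HUWE1-CS cells. Its normalized level was 498, 453 and 455 CPM in the HUWE1-WT libraries and 345, 323 and 339 CPM in the HUWE1-CS libraries. The lines did not overlap. edgeR gave a log2 fold change of -0.48 with a standard error of 0.0659 (adjusted p = 4.68e-09), a level 1.40-fold lower. HUWE1-P cells had 543 CPM, above both edited lines. Fold changes followed transcript length weakly, as given below, and with that trend removed the value for HUWE1 was -0.38 (adjusted p = 3.20e-07, edgeR). The 10 tested genes nearest to HUWE1 had a median of 0.19, and 1 of them was called.

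Of 18 HECT ligases tested, HUWE1 included, 4 fell and 0 rose, 22.2% against 15.5% of all genes called. NEDD4L had a log2 fold change of -0.70, HERC1 of -0.64 and NEDD4 of -0.89. The calls of HERC1 and NEDD4 lay near the threshold. Each was lost in edgeR in 4 of the 6 omissions of a library. The adjusted p reached 0.0264 for HERC1 without HUWE1-WT replicate 1 and 0.0489 for NEDD4 without HUWE1-CS replicate 2. With all 6 libraries both were lost in DESeq2 (0.039 and 0.0509) and in edgeR with the length trend removed (0.0136 and 0.0107). The remaining 14 were not called, ITCH, a ligase of the same family as NEDD4, being at -0.28. The median of the list was -0.07 against 0.00 over all genes, and only 2 members were called once the trend with transcript length, described below, was removed.

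Of the proteins that the study connects with HUWE1 at stalled forks, some differed in mRNA and others did not pass the test. WRNIP1, an ATPase that binds stalled forks, had 148, 149 and 137 CPM in HUWE1-WT and 192, 175 and 187 CPM in HUWE1-CS libraries, a rise of 0.35 on the log2 scale (adjusted p = 0.00062, edgeR; standard error 0.0830). POLR2A, the largest subunit of RNA polymerase II (RNAPII), rose by 0.30 (adjusted p = 0.000328, edgeR), from 428, 381 and 386 to 500, 450 and 516 CPM. Both sets of libraries were separate, with small gaps, and WRNIP1 missed the threshold without HUWE1-WT replicate 3 (adjusted p = 0.0109, edgeR). ATM, the kinase of the double-strand break response, had 31.9, 28.9 and 29.7 CPM against 31.5, 26.7 and 34.3 CPM, which overlap (log2 fold change 0.03, standard error 0.169). RAD50 and MRE11, which with NBN form the complex that senses breaks, had log2 fold changes of -0.01 (standard error 0.102) and -0.13 (standard error 0.211) and were not called, whereas NBN fell by 0.40 on the log2 scale. NBN lost its call in edgeR without HUWE1-WT replicate 3 (adjusted p = 0.0467), HUWE1-CS replicate 2 (0.0247) or HUWE1-CS replicate 3 (0.0102). PCNA, the sliding clamp of replication, was at 269, 309 and 295 CPM in HUWE1-WT and at 334, 363 and 314 CPM in HUWE1-CS libraries. These sets did not overlap, yet the log2 fold change of 0.21 missed the threshold (adjusted p = 0.0178, edgeR), and with the length trend removed it was 0.10.

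MYC, whose protein is a reported HUWE1 substrate, was lower. MYC fell by 0.31 on the log2 scale (adjusted p = 0.000136, edgeR), from 546, 476 and 507 CPM to 432, 415 and 390 CPM. Among 32 tested genes of reported substrates and MYC partners, 3 were higher and 4 lower, with a median of -0.03, and the share called, 21.9%, stands beside 15.5% of all genes. MIF rose by 0.62, and MXD4, a MAX partner that opposes MYC, by 0.68, whereas HK2, a hexokinase, fell by 1.03, TIAM1, an exchange factor for RAC, by 0.54 and MLXIP, a glucose-responsive factor, by 0.51 on the log2 scale. MXD4 lost its call in edgeR without HUWE1-WT replicate 1 (adjusted p = 0.0151) or HUWE1-CS replicate 3 (0.0503), and TIAM1 without any 1 of 4 libraries (at most 0.0255, without HUWE1-CS replicate 3). MCL1, an inhibitor of apoptosis and reported substrate, had overlapping libraries with means of 195 and 197 CPM (log2 fold change 0.01, standard error 0.0783) and was not called.

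The smallest p-value of the comparison belonged to DKK1, a secreted inhibitor of Wnt signalling. It had 557, 610 and 579 CPM in HUWE1-WT and 113, 118 and 123 CPM in HUWE1-CS libraries, 4.93-fold lower (adjusted p = 3.82e-47, edgeR; log2 fold change -2.30, standard error 0.0751). ERRFI1, a feedback inhibitor of the EGF receptor, fell from 614, 586 and 561 CPM to 164, 158 and 159 CPM, a log2 fold change of -1.87 (adjusted p = 6.31e-42, edgeR). In both genes the replicates of a line were within a narrow range and the lines far apart. CYP24A1, the enzyme that inactivates vitamin D, fell from 180 ± 7.94 CPM to 25.5 ± 1.52 CPM (SD, n = 3), the 6 libraries lying far apart by line,, 7.02-fold lower (adjusted p = 2.98e-38, edgeR). VCAN, the matrix proteoglycan versican, had 143, 130 and 112 CPM and then 22.0, 18.1 and 15.7 CPM, 6.88-fold lower (adjusted p = 6.51e-32, edgeR). PALLD, an actin crosslinker, fell by 1.88 on the log2 scale, MALL, a protein of lipid rafts, by 1.37 and PHLDB2, which links microtubules to the cell cortex, by 1.41. HUWE1-P cells had levels near those of HUWE1-WT cells for all of these genes, 579 CPM for DKK1, 601 CPM for ERRFI1, 159 CPM for CYP24A1 and 119 CPM for VCAN. A further gene among the 10 smallest p-values of the lower genes is listed under Entrez identifier 100287119 without a symbol, with 368, 357 and 333 CPM in HUWE1-WT and 134, 137 and 133 CPM in HUWE1-CS libraries.

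Several genes were nearly silent in HUWE1-CS cells. NRIP1, a corepressor of nuclear receptors, had 68.4, 53.4 and 74.4 CPM in HUWE1-WT, and 1.19, 0.567 and 0 CPM, 3 counts in all, in HUWE1-CS libraries. The ratio was 112-fold with a 95% counting interval of 38.1 to 547. LRRTM4, a synaptic membrane protein, had 12.7, 18.5 and 13.4 CPM in HUWE1-WT and 0 counts in all HUWE1-CS libraries, at least 25.8-fold lower when 3 counts over the group are taken as the floor. It is an exception among these genes, as HUWE1-WT cells were themselves apart from HUWE1-P cells, which had 2.49 CPM. ZNF440, a zinc finger gene of a family with close copies whose reads may be split, had 12.7, 16.9 and 14.5 CPM against 1.19, 0 and 0 CPM, a ratio of 38.2-fold with a counting interval of 10.2 to 321. The 10 tested genes nearest to NRIP1 had a median of -0.05 with 2 of them called, and those nearest to ZNF440 a median of -0.02 with 1 called.

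The other genes with the lowest fold changes had low levels. The log2 fold change was -3.25 for ZNF266, -3.14 for MMP14, a membrane metalloprotease that cleaves matrix, -2.91 for REEP1, which shapes the endoplasmic reticulum, and -2.64 for WDR72, and their mean level in HUWE1-WT cells was at most 19.4 CPM. SEC31A, the outer coat subunit of the vesicles that leave the endoplasmic reticulum, fell from 71.3, 64.3 and 84.9 CPM to 10.1, 10.8 and 9.87 CPM, 7.11-fold lower (adjusted p = 1.30e-25, edgeR; log2 fold change -2.83, standard error 0.179). All HUWE1-CS libraries were within 1 CPM of each other.

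**Figure D2:**
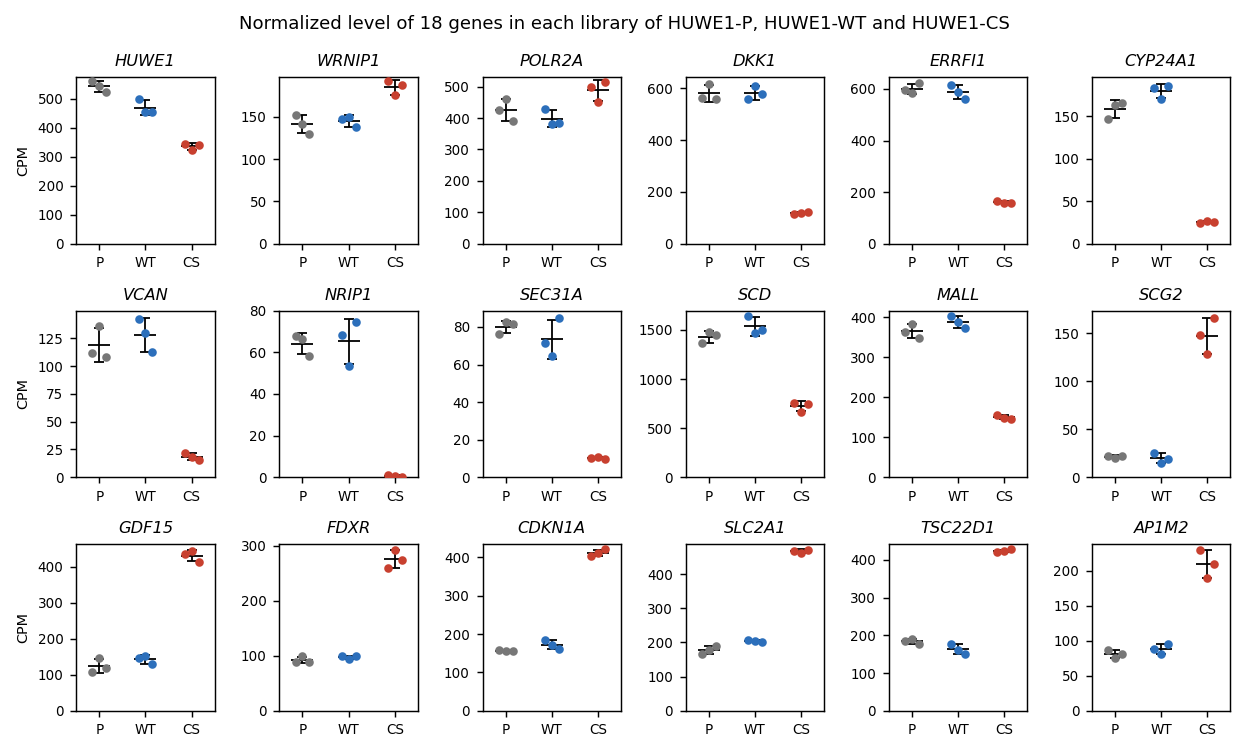
Normalized level (CPM, y axis from 0) of 18 genes in each of the 3 libraries of HUWE1-P (P, grey), HUWE1-WT (WT, blue) and HUWE1-CS (CS, red), with the mean and SD as black bars. DKK1 fell from 582 to 118 CPM and GDF15 rose from 142 to 430 CPM between the means of HUWE1-WT and HUWE1-CS, and no panel shows an overlap between the red and the blue points.

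SEC31A lay among lower genes, as the median over its 10 nearest tested neighbours was -0.48, with 5 of them called. Among 10497 overlapping windows of 25 neighbouring tested genes, the lowest median, -0.44, was found in the window from CNOT6L to PTPN13 (chr4:78634541-87736324, GRCh37), in which 11 genes were called lower and 0 higher. The same window had a median of 0.06 in HUWE1-WT against HUWE1-P cells. Within it, named after their values were seen, GPAT3, an enzyme of triglyceride synthesis, had a log2 fold change of -1.31, COQ2, an enzyme of coenzyme Q synthesis, of -1.13, HPSE, which cleaves heparan sulfate, of -0.93 and LIN54, a subunit of the DREAM complex, of -0.68. HPSE lost its call in edgeR without HUWE1-WT replicate 1 (adjusted p = 0.137), HUWE1-CS replicate 1 (0.0288) or HUWE1-CS replicate 3 (0.0816). With all 6 libraries HPSE also lost it in DESeq2 (0.0638) and limma-voom (0.0141). The same held in edgeR with GC correction (0.0103) or with the length trend removed (0.0102). LIN54 lost its call in edgeR without replicate 1 of either line (0.0107 and 0.0132) and in DESeq2 (0.0174). SEC31A overlaps THAP9 and THAP9-AS1, which were not called. The next lowest windows lay at chr5:81267842-95160087, with a median of -0.42 and 9 lower and 2 higher genes, and at chr9:95820970-99961793, with a median of -0.35 and 1 gene called. The highest medians were 0.33 and 0.28 in a pair of windows on chromosome 8, with 7 and 6 genes higher and 1 lower in each, and 0.28 at chr12:6571403-7089098, with 6 higher and 0 lower. Whole chromosomes did not move in this way, their medians being between -0.05 (chromosome 10) and 0.04 (chromosome 19).

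**Figure D3:**
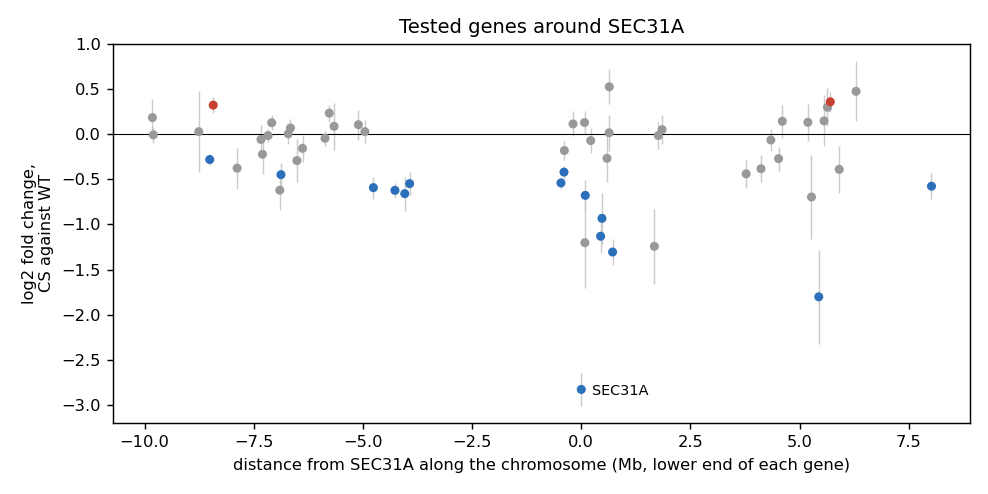
Log2 fold change of HUWE1-CS against HUWE1-WT (y axis, bars are standard errors) of the 57 tested genes within 10 Mb of SEC31A, by distance from SEC31A in Mb. Blue genes were called lower and red genes higher; 15 of the 57 were called lower and 2 higher, and SEC31A at -2.83 lies far below its neighbours.

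Among the genes with the highest fold changes, SCG2, a secretogranin of dense-core vesicles, rose from 25.5, 15.3 and 18.6 CPM to 148, 128 and 165 CPM, 7.45-fold (adjusted p = 4.86e-34, edgeR). PDE4D, a phosphodiesterase that degrades cAMP, had 3 counts over the HUWE1-WT libraries and 37 over the HUWE1-CS libraries, a ratio of 12.6-fold with a counting interval of 3.99 to 63.8. NECTIN4, an adhesion protein, rose by 2.55 on the log2 scale, TSPAN1, a tetraspanin, 4.60-fold, and FGF9, a growth factor, by 1.91, from mean levels of at most 5.55 CPM in HUWE1-WT cells. SSPO and PRSS22 rose by 2.09 and 1.81 on the log2 scale from levels under 5 CPM. RPEL1 rose by 1.94, but its level in HUWE1-P cells, 7.64 CPM, was nearer to the 9.65 CPM of HUWE1-CS cells than to the 2.47 CPM of HUWE1-WT cells. In edgeR RPEL1 lost its call without HUWE1-CS replicate 3 (adjusted p = 0.0194), and FGF9 without HUWE1-WT replicate 1 (0.0175) or HUWE1-CS replicate 1 (0.0112).

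The higher genes with the smallest p-values were of moderate to high level. TSC22D1, a leucine zipper factor, rose from 178, 162 and 152 CPM to 420, 423 and 427 CPM, a log2 fold change of 1.37. SLC2A1, the glucose transporter GLUT1, rose from 208, 205 and 200 CPM to 469, 461 and 471 CPM, a log2 fold change of 1.19 (adjusted p = 1.49e-28, edgeR). AP1M2, an epithelial subunit of the AP-1 clathrin adaptor, rose by 1.25, and CYFIP2, of the complex that regulates actin nucleation, by 1.36. The detoxification enzymes GSTP1 and GPX1 rose by 0.83 and 0.87. No library of one line reached into the range of the other for any of these genes.

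Targets of p53 were examined as a list. p53 is a transcription factor that, when stabilized, activates genes of cell cycle arrest, apoptosis and DNA repair. Of 46 tested targets, 23 rose and 1 fell, and the median log2 fold change was 0.41, against 0.00 over all genes. The share called, 52.2%, compares with 15.5% of all genes. GDF15, a stress-induced secreted factor, rose from 147, 151 and 130 CPM to 434, 442 and 413 CPM, 3.01-fold (adjusted p = 5.59e-34, edgeR). CDKN1A, the cell cycle inhibitor p21, rose from 185, 172 and 160 CPM to 405, 412 and 421 CPM, 2.39-fold (adjusted p = 5.97e-29, edgeR). FDXR, a mitochondrial ferredoxin reductase, rose from 99.1, 93.3 and 98.8 CPM to 260, 292 and 273 CPM, 2.84-fold (adjusted p = 1.77e-29, edgeR). In these 3 genes each line kept to a narrow range.

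By role, 9 of 15 arrest and feedback genes rose and 1 fell, with a median of 0.48. TP53INP1 rose by 1.51, MDM2, the ligase that degrades p53, by 0.76 and BTG2, an antiproliferative factor, by 0.96. FBXW7, the substrate receptor of another ubiquitin ligase, fell by 0.84. The call of FBXW7 was lost in edgeR without HUWE1-WT replicate 2 (adjusted p = 0.0275) or HUWE1-CS replicate 3 (0.0163). Of 13 apoptosis genes 7 rose and 0 fell. TP53I3 rose by 1.46, BBC3, which encodes PUMA, by 1.00 and BAX by 0.78. Of 4 genes of DNA repair and nucleotide supply 2 rose, XPC, which recognizes DNA damage, by 0.66 and RRM2B, a subunit of ribonucleotide reductase, by 0.64. Of 14 genes of metabolism, autophagy and secreted factors 5 rose. ZMAT3 (0.48), DDB2 (0.39) and TIGAR (0.40) did not pass the test. With the length trend removed the median of the list was 0.43.

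Genes of sterol synthesis and uptake were lower in HUWE1-CS cells. Cells make cholesterol from acetyl-CoA through mevalonate, squalene and lanosterol, and most genes of this route are activated by the factor SREBP2 when membrane sterol is low. Of 30 tested members 21 fell and 1 rose, with a median log2 fold change of -0.55, where 8.08% of all genes were called lower. Lower genes were found along the whole route. HMGCS1, a synthase early in the pathway, fell by 0.57 on the log2 scale. Of the enzymes of squalene, FDFT1 fell by 0.48 and LSS by 0.62. DHCR7, a reductase of the last steps, fell by 1.18 (adjusted p = 1.52e-18, edgeR). FDPS (-0.11), PMVK (0.01) and SC5D (-0.25) were not called.

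Among 9 genes of uptake and regulation 5 fell. INSIG1, which retains the SREBP complex in the endoplasmic reticulum, had 94.4, 96.0 and 101 CPM in HUWE1-WT and 32.0, 32.3 and 30.2 CPM in HUWE1-CS libraries, 3.07-fold lower (adjusted p = 1.76e-19, edgeR). STARD4, a sterol carrier, fell by 1.01 on the log2 scale. SREBF2, which encodes SREBP2, was at 212 ± 19.9 and 189 ± 8.52 CPM (SD, n = 3), which was not called (adjusted p = 0.107, edgeR; log2 fold change -0.17), and SCAP, its escort protein, was at 0.02.

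TM7SF2, a sterol reductase that acts beside LBR at a step after lanosterol, was the only member called higher. It had 23.2, 22.4 and 17.4 CPM in HUWE1-WT and 74.8, 84.5 and 68.5 CPM in HUWE1-CS libraries, 3.61-fold higher (adjusted p = 3.74e-18, edgeR), whereas LBR, its partner in function, fell by 0.51 on the log2 scale. TM7SF2 overlaps VPS51, and reads in the shared part cannot be told apart. Of 12 genes of fatty acid synthesis, 6 fell and 0 rose (8.08% of all genes fell). SCD, the desaturase that makes oleate, fell from 1646, 1466 and 1498 CPM to 755, 664 and 747 CPM, 2.13-fold lower (adjusted p = 1.25e-30, edgeR). ELOVL5, an elongase, fell by 0.69, ME1, which supplies NADPH, by 0.49, SREBF1, the regulator of fatty acid genes, by 0.39 and FASN, the fatty acid synthase, by 0.33, while FADS1 (-0.02), FADS2 (-0.12) and ELOVL6 (0.03) were not called.

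Promoters of the sterol list are shown because its members moved together. The CCAAT box is the binding site of NF-Y, a partner of SREBP2 at many of these genes. CCAAT, searched on both strands in the 250 bases before each RefSeq start (GRCh38.p14), was found in 65.5% of 29 windows of 23 members and in 32.0% of all 35116 promoters. Of the genes called lower as a whole, 34.5% of windows held it. A form of the sterol response element, ATCAC and CCAC separated by any base, was searched in the same way and found in 1 of the 29 windows (3.45%), against 0.125% of all promoters. Matches are letters in a window and not sites of binding. The regions of INSIG1 (chr7:155297628-155297877, plus strand), which fell most, and TM7SF2 (chr11:65111622-65111871, plus strand), which rose, are printed with CCAAT or its reverse complement in capitals. Each holds 1 match.
INSIG1: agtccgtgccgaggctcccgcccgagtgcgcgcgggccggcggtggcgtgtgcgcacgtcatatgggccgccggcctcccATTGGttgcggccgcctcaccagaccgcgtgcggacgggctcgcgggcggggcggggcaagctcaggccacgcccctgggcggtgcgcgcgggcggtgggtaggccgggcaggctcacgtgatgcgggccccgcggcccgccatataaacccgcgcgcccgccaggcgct
TM7SF2: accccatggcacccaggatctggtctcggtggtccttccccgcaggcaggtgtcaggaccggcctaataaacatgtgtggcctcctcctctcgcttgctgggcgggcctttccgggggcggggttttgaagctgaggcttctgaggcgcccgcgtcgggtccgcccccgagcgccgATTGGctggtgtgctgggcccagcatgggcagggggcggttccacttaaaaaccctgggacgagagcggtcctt

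Genes of cytosolic ribosomal proteins rose almost as a block. Of 79 tested, 78 were called higher and 0 lower, against 7.42% of all genes called higher, with log2 fold changes from 0.19 to 0.64 and a median of 0.42. The remaining gene, RPL15, was at 0.19 with a standard error of 0.0596 and narrowly missed the threshold, which it passed in edgeR with the length trend removed (adjusted p = 0.00341) and in most other settings. In all 79 genes the 3 HUWE1-CS libraries lay above the 3 HUWE1-WT libraries, which was so in either direction for 36.1% of all genes. RPS18 rose from 1056, 1263 and 1100 CPM to 1728, 1785 and 1740 CPM, 1.54-fold (adjusted p = 2.30e-16, edgeR), and RPL27A from 577, 638 and 582 CPM to 866, 970 and 972 CPM, 1.56-fold (adjusted p = 1.06e-15, edgeR). Their transcripts are short, and with the length trend removed the median was 0.35 with 76 called higher. Ribosomal protein genes have many processed copies in the genome, and how reads of such copies were assigned is not given in the sources used here.

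Many mRNAs of ribosomal proteins begin with a tract of pyrimidines (TOP), through which their translation is controlled by mTOR. The first bases of 6 genes that have such a tract are shown, with the pyrimidine run from the start in capitals. They run from 10 bases before to 20 bases after the RefSeq start (GRCh38.p14). RPL32, which is not shown, had no such tract at its listed starts.
RPS18 (chr6:33272065-33272094, plus strand): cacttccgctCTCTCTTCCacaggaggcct
RPL27A (chr11:8682782-8682811, plus strand): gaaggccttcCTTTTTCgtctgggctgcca
RPS6 (chr9:19380217-19380246, minus strand): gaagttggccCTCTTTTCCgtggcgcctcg
RPL13A (chr19:49487598-49487627, plus strand): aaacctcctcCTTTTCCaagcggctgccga
RPS3A (chr4:151099618-151099647, plus strand): cccacttccgCCCTTTTggctctctgacca
RPLP1 (chr15:69452808-69452837, plus strand): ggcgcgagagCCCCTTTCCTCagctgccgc

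A C at the start followed by pyrimidines up to base 5 was found in 47 of 63 ribosomal protein genes with a listed start (74.6%), and in 5.14% of all 27305 genes with one. Of genes called higher 16.1% and of genes called lower 6.44% had such a start, and of all genes tested 7.81%. The called higher genes include the ribosomal protein genes, so that these shares are not separate observations.

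Nuclear genes of the respiratory chain, which encode most subunits of the complexes that make ATP by oxidation, were also higher. Of 77 tested, 35 rose and 0 fell, with a median of 0.30, where 7.42% of all genes were called higher. By complex, 12 of 37 genes of complex I, 1 of 4 of complex II, 4 of 9 of complex III, 8 of 12 of complex IV with cytochrome c and 10 of 15 of complex V rose. ATP5PD, of ATP synthase, rose from 153, 184 and 179 CPM to 272, 257 and 273 CPM, 1.55-fold (adjusted p = 1.61e-10, edgeR). NDUFA13, of complex I, rose by 0.74 and COX4I1, of complex IV, by 0.43. With the length trend removed 26 were called higher and the median was 0.21. Of 15 mitochondrially encoded genes 1 was called higher (6.67%), the ribosomal RNA gene RNR1 (0.26), and 0 lower. The median was 0.13, with 10 genes above 0 and 5 below, among them COX1 (-0.20) and CYTB (-0.16). No gene of the 15 had separate libraries. Their summed level spread widely, from 6887 to 11698 CPM in HUWE1-WT and from 8383 to 10824 CPM in HUWE1-CS libraries. RNR1 lost its call in edgeR without HUWE1-WT replicate 2 (adjusted p = 0.114), HUWE1-CS replicate 1 (0.0189) or HUWE1-CS replicate 2 (0.0371), and in DESeq2 (0.23). Mitochondrial ribosomal proteins, of similar number, had 3 of 77 called higher (3.9%, against 7.42% of all genes). These were MRPS16 (0.54), MRPL24 (0.59) and MRPL51 (0.41), and the median of the list was 0.06. With the length trend removed 2 were called higher and 2 lower, MRPL51 no longer among them (adjusted p = 0.0276, edgeR).

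Fold changes were related to transcript length over all genes. In 5 bins of the longest annotated transcript, the median log2 fold change was 0.10 in the shortest bin and 0.01, -0.01, -0.03 and -0.06 in the following ones, and calls went from 302 higher and 97 lower in the shortest to 79 higher and 240 lower in the longest. Ribosomal and respiratory chain genes are short and HUWE1 is long, so the values with the trend removed stand beside theirs. The part of RNA quality or library preparation in this trend was not tested.

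Most genes of the actin cytoskeleton and adhesion, listed together with YAP-TEAD factors and targets, were lower. YAP is a coactivator of the TEAD transcription factors and responds to cell shape and contact. Of 47 tested, 25 fell and 1 rose, with a median of -0.36, where 8.08% of all genes were called lower. Among 32 actin and adhesion genes 20 fell, ACTB, cytoplasmic actin, from 2390, 2471 and 2457 CPM to 1539, 1690 and 1625 CPM, 1.51-fold lower (adjusted p = 5.37e-17, edgeR). FLNA, which crosslinks actin, fell by 0.56, VCL, of focal adhesions, by 0.68, MYH9, nonmuscle myosin, by 0.50, PDLIM5, a scaffold on actin fibres, by 1.48 and ITGA2, a collagen receptor, by 1.26 on the log2 scale. Among 15 YAP-TEAD factors and targets 5 fell and 1 rose, so that most were not called. Their median was -0.26, with 10 below 0 and 5 above, against a median of -0.42 for the actin and adhesion genes. CCN1, a secreted matrix protein and classical target, fell from 26.8 ± 3.12 to 7.16 ± 0.373 CPM (SD, n = 3), 3.73-fold lower (adjusted p = 1.24e-09, edgeR), AXL, a receptor kinase, fell by 1.00, and YAP1 itself rose by 0.37. The 3 HUWE1-CS libraries lay beyond the HUWE1-WT libraries for 28 of the 47 genes (59.6%), against 36.1% of all genes.

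Of 50 tested genes of the replication fork 7 fell and 2 rose, 18% called, near the 15.5% called among all genes. Their median was -0.11, with 37 members below 0 and 13 above. RRM2, the regulated subunit of ribonucleotide reductase, fell from 614, 689 and 615 CPM to 391, 390 and 435 CPM, 1.58-fold lower (adjusted p = 8.07e-15, edgeR), and MCM6, of the replicative helicase, from 264, 266 and 265 CPM to 194, 180 and 168 CPM, 1.47-fold lower. LIG1, the ligase of Okazaki fragments, rose by 0.42 and TIMELESS, of the fork protection complex, by 0.32. Of 38 mitotic genes 9 fell and 0 rose, with a median of -0.19, where 8.08% of all genes were called lower. MKI67, the proliferation marker, fell by 0.56, ANLN, of the contractile ring, by 0.56 and CENPA, the centromeric histone, by 0.78, whereas CDK1 (0.12), AURKB (0.12) and CCNB2 (0.14) were not called. In edgeR TIMELESS lost its call without HUWE1-WT replicate 3 (adjusted p = 0.0362), and CENPA without HUWE1-WT replicate 2 (0.0225) or HUWE1-CS replicate 3 (0.0114).

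Among 43 genes of RNAPII and elongation, 5 rose and 2 fell, 16.3% called, near the 15.5% of all genes. Of the 12 subunits only POLR2A was called. HEXIM1, which holds the elongation kinase P-TEFb inactive, rose by 0.52 and SUPT4H1, a subunit of DSIF, by 0.56. Of genes of the PAF1 complex, RTF1 (0.45) and LEO1 (0.42) were called higher and CTR9 (-0.29) and PAF1 (-0.38) lower by edgeR, but none of these 4 was called by DESeq2 (adjusted p of 0.0224, 0.0597, 0.0159 and 0.037). Of 27 genes of damage signalling at forks, 3 rose, WRNIP1, TRIM28 (0.25) and XRCC6 (0.21), and NBN fell (14.8% called). Of 32 proteasome genes 4 fell and 0 rose, 12.5% called against 15.5% of all genes. The lower genes were PSMD13 (-0.35), PSMD1 (-0.32), PSMD3 (-0.30) and PSMC1 (-0.30), and the median of the list was -0.11. With the length trend removed 7 proteasome genes were called lower and the median was -0.17. Calls of SUPT4H1, RTF1, CTR9, PAF1, XRCC6, PSMD13, PSMD3 and PSMC1 were lost without 1 or more of the libraries, with adjusted p from 0.0103 (PSMD13, without HUWE1-CS replicate 3) to 0.0344 (PSMC1, without HUWE1-WT replicate 2) in edgeR. LEO1 was lost without any 1 of 5 libraries, at most 0.0463 without HUWE1-CS replicate 2, and also in limma-voom (0.0116), under total counts (0.0162), with only the 6 libraries fitted (0.0117) and with the length trend removed (0.019).

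Signalling and metabolic lists were mixed in direction. Of all genes 15.5% were called. The share was 38.7% for glycolysis and hypoxia, 47.8% for ERK feedback and EGFR ligands and 30.8% for the Wnt pathway. Of 31 genes of glycolysis and hypoxia 5 rose and 7 fell, with SLC2A1 (1.19), PFKL (0.40) and PFKM (0.29) on one side and HK2 (-1.03), HK1 (-0.63), PFKP (-0.48) and LDHA (-0.29) on the other, so that the phosphofructokinases moved in different directions while both hexokinases fell. HK2 had 119, 125 and 109 CPM in HUWE1-WT and 49.8, 58.4 and 63.9 CPM in HUWE1-CS libraries. Of 23 genes of ERK feedback and EGFR ligands 7 rose and 4 fell. DUSP4 and DUSP6, phosphatases of the ERK pathway, rose by 1.12 and 0.68, ETV4, a target factor, rose by 0.62, and DUSP5 fell by 0.69, beside ERRFI1 with -1.87. Of the ligands, TGFA (0.41) and AREG (0.32) rose and EREG (-0.28) fell. Of 13 Wnt pathway genes 2 rose and 2 fell, RNF43, which removes Wnt receptors, by 0.87 upwards and CCND1, cyclin D1, by 0.44 downwards, SOX4 (0.41) and DKK1 being the others. SOX4 lost its call without HUWE1-CS replicate 2 (adjusted p = 0.0821, edgeR), PFKM without HUWE1-WT replicate 3 (0.0304), EREG without HUWE1-WT replicate 1 (0.0115) or HUWE1-CS replicate 2 (0.0318), and TGFA and AREG each without any 1 of 4 libraries (at most 0.0398 and 0.0586). AREG was also lost with the length trend removed (0.0835).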

How the data were processed

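Poly(A) RNA of untreated cells was sequenced from one end. Per the submitters' processing notes STAR 2.5.4 and the hg19 build were used, and the study's methods name Skewer for adapter trimming. The authors deposited raw counts per gene, whose counting tool, annotation and low-count filter are not given in the sources used here. Deposited tables of the authors' comparisons (fold changes, F and p-values) were not used. The kit does not mark strand.

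The genotype in the labels gave the lines. Counts were fitted with edgeR 4.0.16 in R 4.3.3 (TMM, glmQLFit with legacy = TRUE, glmQLFTest, line as the only term, Benjamini-Hochberg adjustment over 11350 genes), over all 9 libraries, with a spread estimated jointly (common biological CV 4.77%, prior degrees of freedom 89.5). No gene was removed. Values are TMM-normalized CPM. Replicate pairs differed by more than sampling noise (chi-square per degree of freedom 1.16 to 1.65). Positions of 11049 genes came from GENCODE on GRCh37 by symbol. Genes without a symbol (147) held 0.490% to 0.531% of counts. On simulated counts, with 200 changed genes in each of 3 data sets, 4 of 371 calls were false. Alternatives included DESeq2 1.42.0 and limma 3.58.1 (voom). Scripts used Python 3.11.15.

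Gene members and lists were chosen with earlier results of these data known. Named were the 10 highest and 10 lowest fold changes among called genes with separate libraries, the 10 smallest p-values in each direction, genes of the study's question (HUWE1, WRNIP1, ATM, RAD50, MRE11, PCNA, POLR2A, MYC), and in each list the 6 smallest p-values and members needed to describe a role. Some genes that these rules name are not reported here.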

Additional observations from a re-analysis of the deposited data

How the results depend on the processing

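The number of genes called depended on the test. DESeq2 called 998 genes (502 higher, 496 lower), all among the 1759 called by edgeR in the same direction. Among genes named above it also did not call COL1A1 (adjusted p = 0.0345), NBN (0.0234), MXD4 (0.0292), TIAM1 (0.0316) or FGF9 (0.0193). Nor did it call FBXW7 (0.0236), TIMELESS (0.0205), CENPA (0.0237), PSMC1 (0.0353), SOX4 (0.0153), PFKM (0.0141), TGFA (0.0301) or AREG (0.0396). SLC1A5 (0.0286), TAP2 (0.0156), ELF3 (0.0137) and EPCAM (0.0146), described below, were likewise missed. An FDR of 0.05 gave 2774 (1344 higher, 1430 lower), and an added minimum of 1 in absolute log2 fold change gave 273 (71 and 202). Omitting any single library gave 1373 to 1510 called genes, and the remaining settings 1639 to 1860. HUWE1 was lower and called in all 20 settings, and no called gene among those followed changed sign. Of 177 called genes followed through the settings, 146 were called in every setting that kept all 6 libraries and 133 in every setting. Genes of low level were not tested where 10 counts in every library were required. This was not counted as a lost call. WRNIP1 lost its call without HUWE1-WT replicate 3 (adjusted p = 0.0109, edgeR). With libraries omitted singly, the median ran from 0.4008 to 0.4468 for p53 targets, from -0.5765 to -0.5509 for the sterol list, from 0.2591 to 0.3547 for the nuclear respiratory chain and from -0.4055 to -0.3216 for the cytoskeletal list. Under total counts the sterol median was -0.5758 and the cytoskeletal one -0.3874, and 14 mitotic genes were called lower. With the length trend removed, the respiratory chain median was 0.2103, the cytoskeletal one -0.3306, and the difference between length bins 0.004888. The difference in mitochondrial share ran from -0.1238 (without HUWE1-WT replicate 2) to 0.1169, and was -0.03031 and -0.01545 without HUWE1-CS replicates 1 and 2. Genes near 0 that were not called changed sign. RAD50 was at 0.02136 with GC correction, 0.0228 with GC correction and replicate block, 0.0564 with the length trend removed and -0.09392 to 0.08028 with libraries omitted singly, where ATM ran from -0.04659 to 0.1326, MRE11 from -0.3387 to 0.05857, ND4L from -0.02066 to 0.5449, MCL1 from -0.07442 to 0.06329, PMVK from -0.1214 to 0.09174, FADS1 from -0.07366 to 0.02777, FADS2 from -0.407 to 0.07644 and ELOVL6 from -0.03359 to 0.09897. Under total counts MCL1 was at -0.01822, PMVK at -0.02131 and SCAP at -0.008502. With GC correction PMVK was at -0.02372 and SCAP at -0.01626, and with the replicate block added at -0.02369 and -0.01606. With the length trend removed PMVK was at -0.1445, FADS1 at 0.011 and AURKB at -0.006175. PMVK was at -0.0007183 in limma-voom. The cause of these shifts was not tested. Same-numbered HUWE1-WT and HUWE1-CS libraries had correlated deviations of 0.106, 0.127 and -0.0307, so the numbers were not taken as pairs, and the replicate block gave 1835 calls (1860 with GC correction). Not every library correlated best with its own number.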

Other observations

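Lists not described above were mixed in direction or, for TGF-beta and BMP signalling, near the share of all genes. Of 30 genes of the ATF4 response, which adapts cells to amino acid shortage, 2 rose and 5 fell in HUWE1-CS against HUWE1-WT cells (edgeR, FDR of at most 0.01). Their median log2 fold change was 0.02, and 23.3% were called, against 15.5% of all genes. ATF4 itself was higher by 0.28 and MTHFD2, of mitochondrial folate metabolism, by 0.27, whereas 4 amino acid transporters, SLC38A2 (-0.59), SLC7A1 (-0.45), SLC7A5 (-0.36) and SLC1A5 (-0.23), and SHMT2 (-0.38) were lower. MTHFD2 lost its call without HUWE1-WT replicate 1 (adjusted p = 0.0124, edgeR), and SLC1A5 without any 1 of 4 libraries (at most 0.0518, without HUWE1-CS replicate 1). Of 19 NRF2 targets, genes of the oxidative stress response, 3 rose and 3 fell (31.6% called). ABCC2, an export pump, had -1.28 and TXNRD1, thioredoxin reductase, -0.73, while the ferritin genes FTL and FTH1 had 0.36 and 0.33. NQO1, often used as a readout of NRF2, was at -0.04 and was not called.

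Of 18 tested interferon and antigen presentation genes 4 rose and 4 fell (44.4% called, against 15.5% of all genes). HLA-C (0.35) was higher, whereas B2M, the light chain of class I molecules, was lower (-0.38), and TAP2 was lower (-0.44). HLA genes share sequence, so their reads may be split. Of 18 genes of TGF-beta and BMP signalling 2 fell, SMAD3 (-0.61) and BMP4 (-0.46), and 0 rose (11.1% called). With the trend with transcript length removed 4 fell. Of the 10 tested colon epithelial markers 4 rose and 2 fell (60% called). CLDN7 (0.54), CDH1 (0.48), ELF3 (0.42) and EPCAM (0.24) were higher and the keratins KRT8 (-0.37) and KRT18 (-0.26) lower. Calls of CDH1, ELF3, EPCAM, KRT18 and TAP2 were lost in edgeR without 1 or more libraries, the largest adjusted p being 0.0431 (EPCAM without HUWE1-CS replicate 3). EPCAM was also lost with the length trend removed (0.085).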
